A study of Mus musculus with 4 samples.

Results

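The immunity-related GTPases (IRG proteins) examined here were Irgm1, Irgm2, Igtp, Iigp1, Tgtp1 and Tgtp2, taken by symbol from a deposited table of 54532 genes. These 6 genes fell into 3 regulatory members (Irgm1, Irgm2 and Igtp) and 3 effector members (Iigp1, Tgtp1 and Tgtp2). The RNA sequenced came from cells labelled MSCs, which were obtained from CB6F1 mice (an F1 hybrid laboratory strain) by digesting whole bone marrow and were grown in high-glucose DMEM with serum. A compound that the labels call only R had been added at 0.5 µM for 2 libraries, where the unit appears as "um", and DMSO for the 2 vehicle libraries. The sample titles of both groups carry the term aGVHD, and neither the age of the mice nor any pooling is stated. Whether replicates were separate mice or cultures is not stated either, so each p-value reflects only how far these libraries spread, which may be technical.

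IRG proteins are large GTPases that interferons, above all interferon gamma, induce in many mouse cell types. The effector proteins bind GTP and coat the vacuole in which parasites such as Toxoplasma or bacteria such as Chlamydia live, and break it open. The regulatory proteins sit on the membranes of the cell itself and hold the effectors in their inactive state there, and placement of the effectors also depends on the ATG8 conjugation enzymes of autophagy.

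The 2 classes differ in the loop that grips the phosphates of the nucleotide, where regulatory proteins have a methionine and effector proteins the usual lysine. The stretches of coding sequence for this loop are shown because they define the classes compared below. They were read from GENCODE M21 transcripts, with the codon for the methionine or lysine in capitals.
Irgm1, Irgm2 and Igtp: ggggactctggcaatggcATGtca
Tgtp1 and Tgtp2: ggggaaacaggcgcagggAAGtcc
The regulatory members were identical over these 24 bases, and so were Tgtp1 and Tgtp2. Iigp1 has the lysine codon AAG at the same place. Over the whole coding sequence, Tgtp1 and Tgtp2 were identical at 1241 of 1245 aligned bases (99.7%), whereas Irgm2 and Igtp were identical at 74.6% and Irgm1 and Iigp1 at 63.6%.

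The promoters are shown because the members with enough reads to test fell together. RefSeq promoter sequences (GRCm38.p6, 250 bases before to 50 after the start site) were found for 5 of the 6 members, all but Iigp1. They were searched on both strands for GAAA followed after any 2 bases by GAAA, the core of the interferon-stimulated response element bound by factors of the IRF family, and for TTCNNNGAA, the gamma-activated site found in many promoters induced by interferon gamma. Each line gives 50 bases read along the gene's strand, with matches to either motif in capitals.
Irgm1 (chr11:48871425-48871474, minus strand): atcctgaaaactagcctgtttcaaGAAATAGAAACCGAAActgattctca
Irgm2 (chr11:58214883-58214932, plus strand): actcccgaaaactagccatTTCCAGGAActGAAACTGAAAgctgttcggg
Igtp (chr11:58199492-58199541, plus strand): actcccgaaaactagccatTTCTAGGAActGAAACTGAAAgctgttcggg
Tgtp1 (chr11:48992304-48992353, minus strand): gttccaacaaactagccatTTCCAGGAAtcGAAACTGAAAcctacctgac
Tgtp2 (chr11:49064263-49064312, minus strand): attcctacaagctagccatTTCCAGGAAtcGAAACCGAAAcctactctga

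All 5 promoters held the response element motif, which occurred in 3.44% of 32851 RefSeq promoters of the same length. The gamma-activated site motif was in 4 of the 5, against 8.30% of all promoters. Irgm1 was the member without it, and instead held 2 overlapping response element matches, from 30 to 21 and from 24 to 15 bases upstream of the start site. In Irgm2, Igtp, Tgtp1 and Tgtp2 the gamma-activated site stood upstream of the response element with a gap of 2 bases between them. This arrangement was noticed in the members' own promoters and then searched for. It occurred in 5 of 32851 promoters (0.0152%), those of these 4 genes and of Gm12185, another IRG locus that overlaps Tgtp1. These promoters share much of their surrounding sequence, so they are not independent occurrences. A match describes the letters only and does not show that a factor bound there.

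**Figure D1:**
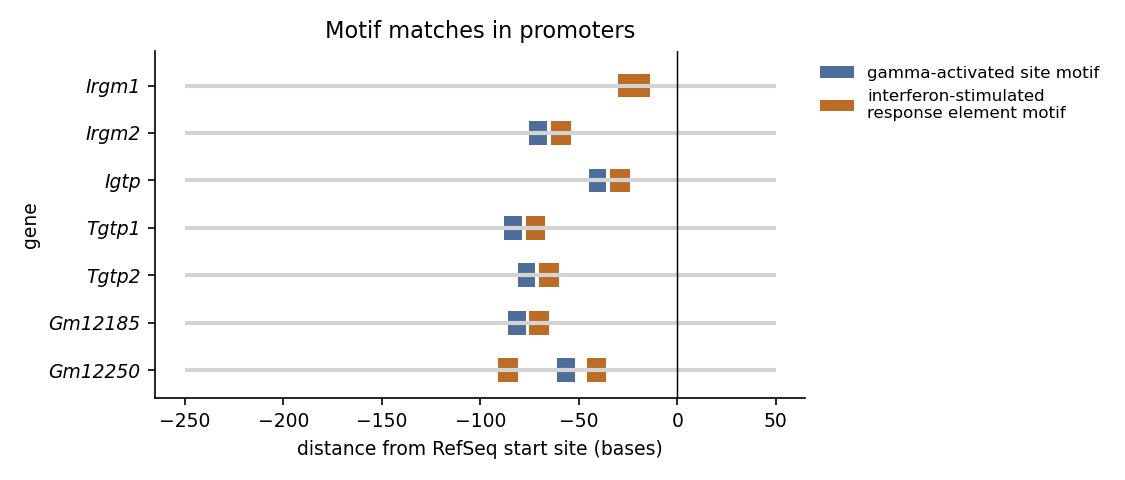
Positions of motif matches in the promoters of 5 IRG members and of the IRG loci Gm12185 and Gm12250, as distance in bases from the RefSeq start site (vertical line). Blue bars are gamma-activated site motifs and orange bars response element motifs on either strand. The paired blue and orange bars lie within 88 bases of the start site in Irgm2, Igtp, Tgtp1, Tgtp2 and Gm12185.

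Values are FPKM, a read abundance scaled by gene length and library size, in which genes can be compared with each other. Recovered reads per library ranged from 18091297 to 19940952. The cultures held transcripts of more than 1 cell type. All 16 macrophage markers were detected, with sums of 16339 and 12587 FPKM in R replicates 1 and 2 and 23794 and 21281 FPKM in vehicle replicates 1 and 2. The stromal markers Cxcl12, Col1a1 and Pdgfra were present, while Lepr and Thy1 stayed below 1 FPKM in each library. Of 8 T and NK cell markers 6 were at 0 throughout, Cd3e and Cd8a among them. In bulk RNA, fewer cells of a type and less RNA per cell cannot be told apart. The test was limma on log2(FPKM + 1) over the 12176 genes whose mean reached 1 FPKM, and with a Benjamini-Hochberg adjusted p under 0.05 it called 167 genes lower and 42 higher with R. That is a background of 1.37% called lower and 0.345% called higher. Of these calls 79.9% were lower, compared with 68.1% on the TPM scale and 61.0% after correction for a gene length trend. Without R replicate 2 they were 48.7% lower, with 425 genes lower and 447 higher.

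IRG transcripts were lower in cells given R than in cells given vehicle. Of the 6 members 5 reached the level needed for testing, and each of these had more than 1 FPKM in every library. All 5 fell in R, against the 1.37% of tested genes called lower. The regulatory members stood at between 31.6 and 38.8% of their vehicle level and the effectors Iigp1 and Tgtp2 at 21.6 and 22.6%. The 2 groups of libraries did not overlap for any of the 6 members, an arrangement found in 25.2% of tested genes in this direction. The sixth member, Tgtp1, was too low to test. On 6 to 15 reads a library this effector stood at 38.1% of its vehicle level, within the range of the regulatory members.

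Irgm1 restrains the effectors on membranes of the Golgi and lysosomes and was the most abundant member. It was at 5.71 and 5.97 FPKM in R replicates 1 and 2 and at 14.998 and 15.4 FPKM in vehicle replicates 1 and 2. Replicates lay close together and the groups far apart, with means of 5.84 ± 0.189 and 15.2 ± 0.268 FPKM (SD, n = 2 each). The log2 fold change was -1.24 (SE 0.114; limma, Benjamini-Hochberg adjusted p = 0.00888), on the log2(FPKM + 1) scale that understates the change of low genes.

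Irgm2, a regulatory member found on the Golgi, was at 3.71 and 4.79 FPKM in R and at 10.9 and 10.98 FPKM in vehicle. Its R libraries differed more than its vehicle libraries, with means of 4.25 ± 0.768 and 10.95 ± 0.0401 FPKM (SD, n = 2 each). The log2 fold change was -1.19 (SE 0.144; limma, Benjamini-Hochberg adjusted p = 0.0203). On the TPM scale its call was lost (adjusted p = 0.0717 in limma). Over 15 alternative settings its adjusted p in limma was highest, at 0.152, when every gene above 0 was tested. The lowest, 4.71e-12, came from a limma fit with a replicate block, which pairs libraries by number alone on 1 residual degree of freedom. With that block and a gene length correction limma gave 0.000507.

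Igtp, also named Irgm3, is the regulatory member associated with the endoplasmic reticulum and lipid droplets. It was at 4.84 and 3.75 FPKM in R and at 14.7 and 12.4 FPKM in vehicle, with replicate 1 the higher in both groups. Its log2 fold change was -1.46 (SE 0.158; limma, Benjamini-Hochberg adjusted p = 0.0147), and its mean was 3.16-fold lower in R, at 4.29 ± 0.776 against 13.6 ± 1.62 FPKM (SD, n = 2 each). Igtp and Irgm2 overlap on the same strand, with annotated starts at positions 58199556 and 58199618. The RefSeq promoter of Irgm2 shown above lies further downstream, at 58214727 to 58215026. In all 162 exonic bases, 8.01% of Igtp and 4.39% of Irgm2, are annotated to both, so a part of their reads could be assigned to either.

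Iigp1, also named Irga6, is an effector that oligomerises on the vacuole membrane. Its fold change and that of Tgtp2 were the largest of the members, and near equal (4.63-fold and 4.43-fold lower in R). Iigp1 went from 9.34 and 9.66 FPKM in vehicle to 1.68 and 2.43 FPKM in R. The means were 9.50 ± 0.229 and 2.05 ± 0.530 FPKM (SD, n = 2 each), with no overlap. Its log2 fold change was -1.79 (SE 0.158; limma, Benjamini-Hochberg adjusted p = 0.00763), the 45th most negative of the 12176 tested genes. Without vehicle replicate 2 the order of the pair turned, with -1.77 for Iigp1 and -1.81 for Tgtp2.

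Tgtp2, also named Irgb6, is an early effector on the vacuole and was at 1.43 and 1.71 FPKM in R against 8.01 and 5.92 FPKM in vehicle. The vehicle libraries differed from each other, with a mean of 6.96 ± 1.48 FPKM (SD, n = 2), but both lay far above the R mean of 1.57 ± 0.201 FPKM (SD, n = 2). Its log2 fold change was -1.62 (SE 0.172; limma, Benjamini-Hochberg adjusted p = 0.0146).

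Tgtp1, the near-identical neighbour of Tgtp2, was at 0.0970 and 0.103 FPKM in R and at 0.265 and 0.261 FPKM in vehicle. These values rest on 6 reads in each R library and 15 in each vehicle library. The vehicle to R ratio of the summed reads, scaled by library size, was 2.63, with a 95% exact interval of 1.31 to 5.63 that covers counting error only. On the same strand, 223 exonic bases of Tgtp1 (6.96%) are also annotated to Gm12185, so a part of the Tgtp1 reads could be assigned to either. Of all 100-base stretches of Tgtp1 transcripts, 70.3% also occur in Tgtp2, and 76.8% of those of Tgtp2 occur in Tgtp1. How reads matching both were counted is not given in the sources used here, so the split between the copies is uncertain. Summed, the pair was at 1.53 and 1.82 FPKM in R and at 8.27 and 6.18 FPKM in vehicle, and fell as 1 gene (log2 fold change -1.61; limma, Benjamini-Hochberg adjusted p = 0.0137).

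**Figure D2:**
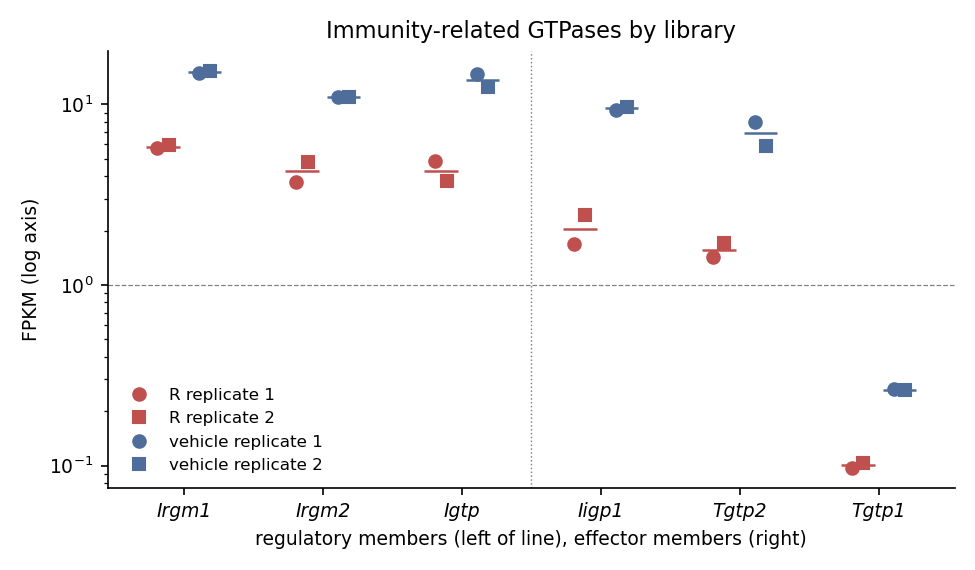
FPKM of the 6 members in each library on a log axis, with circles for replicate 1, squares for replicate 2 and short lines for group means. The dashed line marks 1 FPKM, the mean needed for testing, and the dotted line parts regulatory from effector members. Both R libraries lie below both vehicle libraries for each member, and Tgtp1 lies below 0.3 FPKM in all 4.

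The order of the members by level was Irgm1, Igtp, Irgm2, Iigp1, Tgtp2 and Tgtp1 in both groups by mean. In vehicle the ranges of neighbours in this order did not overlap, although Igtp in replicate 1 (14.7 FPKM) came close to Irgm1 (14.998 FPKM). In R the ranges of Igtp and Irgm2 overlapped, as did those of Iigp1 and Tgtp2, so their order there is not resolved. With 2 libraries a group these ranges are themselves imprecise.

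The regulatory members were set against the effectors within each library, as ratios of FPKM. Summed effectors were 0.225 and 0.292 of summed regulatory members in R replicates 1 and 2 and 0.433 and 0.408 in vehicle replicates 1 and 2. Both R values lay below both vehicle values, since the effector sum was 4.49-fold lower in R and the regulatory sum 2.76-fold lower. The direction held for Iigp1 against Irgm1, at 0.294 and 0.406 in R and 0.623 and 0.628 in vehicle. Against Irgm2 the ratio of Iigp1 was 0.452 and 0.506 in R and 0.855 and 0.880 in vehicle. Against Igtp the Iigp1 ratio overlapped between the groups, at 0.346 and 0.648 in R and 0.634 and 0.777 in vehicle. Tgtp2 per Irgm1 was 0.250 and 0.287 in R and 0.534 and 0.385 in vehicle, and Tgtp2 per Igtp was 0.295 and 0.457 against 0.544 and 0.476.

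No p-value is given for these ratios, and whether the 2 classes differ in their response was not tested. The difference between the mean log2 fold changes of the 3 regulatory and the 3 effector members depended on how low values were handled. On the log2(FPKM + 1) scale it was -0.10, with Tgtp1 compressed by the pseudocount. By mean FPKM Tgtp1 was 2.62-fold lower in R, near Irgm1 (2.60) and Irgm2 (2.58) rather than the other effectors. Without Tgtp1 it was 0.41, and as a log2 ratio of mean FPKM with no pseudocount it was 0.45, both with the effectors falling further. With a pseudocount of 5 it was -0.25.

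**Figure D3:**
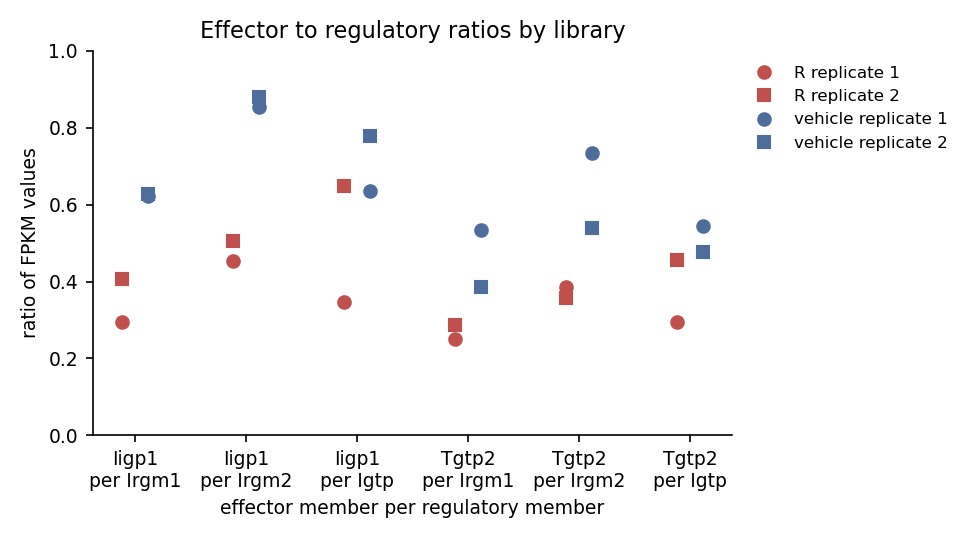
Ratios of the FPKM of the effectors Iigp1 and Tgtp2 to each regulatory member, by library, on a linear axis from 0 to 1. Red points are R and blue points vehicle libraries. R lies below vehicle in each pair except Iigp1 per Igtp, where R replicate 2 (0.648) exceeds vehicle replicate 1 (0.634).

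All members but Iigp1 lie on chromosome 11 of GRCm38, in 2 groups. Irgm1 (ENSMUSG00000046879) spans positions 48861968 to 48871683, Tgtp1 (ENSMUSG00000078922) 48985327 to 48994172 and Tgtp2 (ENSMUSG00000078921) 49057194 to 49064206, on the minus strand. Igtp (ENSMUSG00000078853) spans 58199556 to 58207591 and Irgm2 (ENSMUSG00000069874) 58199618 to 58222782, on the plus strand. Iigp1 (ENSMUSG00000054072) lies on the plus strand of chromosome 18, at 60376027 to 60392634. The exon lengths used here include untranslated regions, and for Iigp1 the deposited values did not match that length.

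The family has other loci, of which 10 were read here. The 8 effector-like ones lie on chromosomes 11 and 18 and the 2 divergent ones, Irgq and Irgc1, on chromosome 7. Of the 5 that could be tested, 3 fell, 0 rose and 2 did not pass. Over all tested genes 1.37% were called lower and 0.345% higher. Gm12250, the locus of the effector Irgb10, was at 0.691 and 0.781 FPKM in R and at 7.03 and 6.08 FPKM in vehicle. It had the most negative log2 fold change of the family, -2.12 (SE 0.140; limma, Benjamini-Hochberg adjusted p = 0.00332), and passed the filter through its vehicle values alone. GENCODE M21 annotates it as a processed pseudogene with 1 exon of 1274 bases. Its promoter held 2 response element matches and 1 gamma-activated site match. Of the 6 other loci with a promoter in the table, 3 held the response element motif and 2 the gamma-activated site motif. Gm5431, which fell, held neither, and 9930111J21Rik1, whose groups overlapped, held a response element match downstream of its start site. Gm4951, near Iigp1 on chromosome 18, was at 1.39 and 2.01 FPKM in R and at 8.47 and 9.27 FPKM in vehicle. Gm5431, next to Irgm1, was at 1.09 and 1.85 FPKM in R and at 6.08 and 5.35 FPKM in vehicle. Gm4951 and Gm5431 had log2 fold changes of -1.88 and -1.46 (adjusted p = 0.00728 and adjusted p = 0.0252 in limma). Of 100-base stretches of Gm5431 transcripts 20.6% occur in another gene, so a part of its reads is uncertain.

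The remaining loci did not share this pattern or could not be tested. Irgq, a divergent member, was at 9.11 and 11.4 FPKM in R and at 8.34 and 8.94 FPKM in vehicle and did not pass (log2 fold change 0.22; limma, Benjamini-Hochberg adjusted p = 0.536). The tandem locus 9930111J21Rik2 overlapped between groups, with a log2 fold change of -0.12 (limma, Benjamini-Hochberg adjusted p = 0.889). F830016B08Rik, Gm4841, Gm12185 and 9930111J21Rik1 had means under 1 FPKM. By mean, F830016B08Rik was 4.85-fold, Gm4841 4.06-fold and Gm12185 1.66-fold lower in R, without overlap between the groups, while 9930111J21Rik1 overlapped. That arrangement was found in 19.9% of genes above 0 in any library. Gm4841 rested on 4 reads in R and 16 in vehicle. Irgc1, a divergent member, had 0 recovered reads in each library, which allows up to 3 reads.

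**Figure D4:**
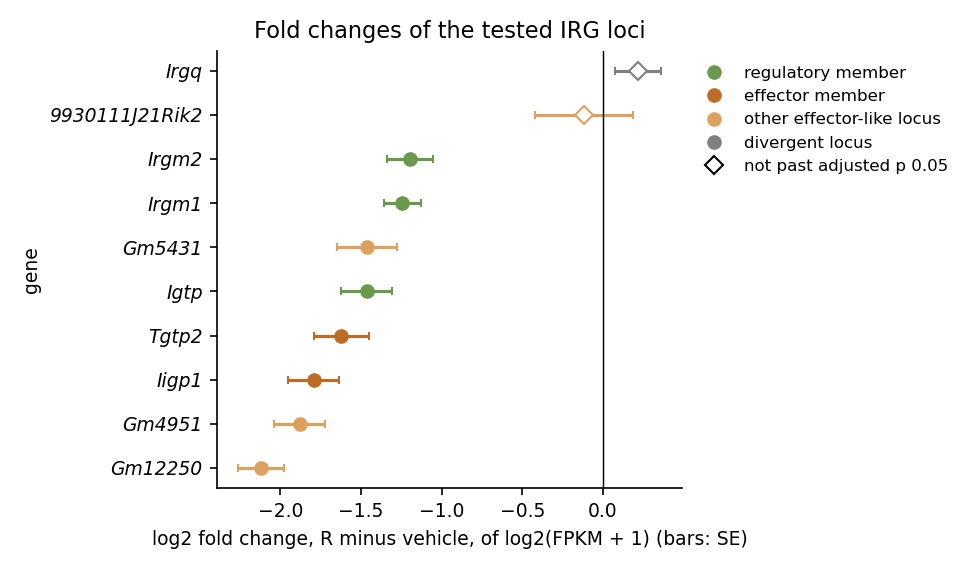
Log2 fold changes (R minus vehicle, on log2(FPKM + 1)) of the 10 tested IRG loci, with bars of 1 SE from limma, coloured by class. Filled circles passed an adjusted p of 0.05 and open diamonds did not. Gm12250 lies furthest left, at -2.12, and Irgq is the one locus with a value above 0.

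The genes that carry the interferon signal to IRG promoters were read in the same fit. Of 14 receptor and signalling genes, all tested, 4 fell and 0 rose, against a background of 1.37% called lower and 0.345% called higher. Their median log2 fold change was -0.33, against 0.0001 over all tested genes. No receptor or kinase passed. Ifngr1, the ligand-binding chain of the interferon gamma receptor, was at 80.4 and 77.6 FPKM in R and 88.3 and 86.4 FPKM in vehicle. Ifngr2, its signalling chain, was at 31.6 and 32.2 FPKM in R and 43.3 and 40.6 FPKM in vehicle (limma, Benjamini-Hochberg adjusted p = 0.209). Jak1, the kinase shared by both receptors, had a log2 fold change of -0.07.

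The transcription factors divided. Stat2 was at 4.38 and 3.96 FPKM in R and 13.3 and 12.1 FPKM in vehicle, and Irf9 at 3.31 and 3.02 against 12.1 and 10.3 FPKM. Both fell, with log2 fold changes of -1.40 and -1.55 (adjusted p = 0.00763 and adjusted p = 0.0075 in limma). Irf1, which acts on many promoters induced by interferon gamma, was at 9.41 and 9.65 FPKM in R and 12.7 and 11.5 FPKM in vehicle and did not pass (log2 fold change -0.31; limma, Benjamini-Hochberg adjusted p = 0.284). Irf8, a myeloid member of the same family, did not pass either, at -0.34. Of the feedback inhibitors, Usp18 fell by 2.11 on the log2 scale, from 5.12 and 5.09 FPKM in vehicle to 0.390 and 0.436 FPKM in R, and it passed the filter through its vehicle values alone. Socs1 had a log2 fold change of 0.34 and did not pass. The genes Ifng and Ifnb1, which encode interferons gamma and beta, had 0 recovered reads in each library, which allows up to 3 reads.

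The proteins with which IRG proteins work were measured as a further list of 26 genes. Of the 21 tested, 2 fell and 0 rose, against a background of 1.37% called lower and 0.345% called higher. The median log2 fold change of the 21 was -0.23. Both genes that fell encode guanylate-binding proteins, the larger interferon-induced GTPases that join the IRG proteins on vacuoles. Gbp2 was at 7.76 and 8.30 FPKM in R and 17.6 and 17.1 FPKM in vehicle, and Gbp3 at 1.36 and 1.05 against 5.10 and 5.12 FPKM. The other 4 tested guanylate-binding proteins, Gbp5, Gbp7, Gbp8 and Gbp9, had log2 fold changes from -0.93 to -0.59 and did not pass. None of the 15 tested genes of ATG8 conjugation, ATG8 proteins, ubiquitin ligases and adaptors passed. Atg5, part of the conjugation enzyme on which IRG placement depends, was at 17.2 and 17.0 FPKM in R and 22.6 and 21.5 FPKM in vehicle (log2 fold change -0.35; limma, Benjamini-Hochberg adjusted p = 0.228). Sqstm1, an adaptor that binds ubiquitin on IRG-coated vacuoles, had a log2 fold change of 0.06.

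**Figure D5:**
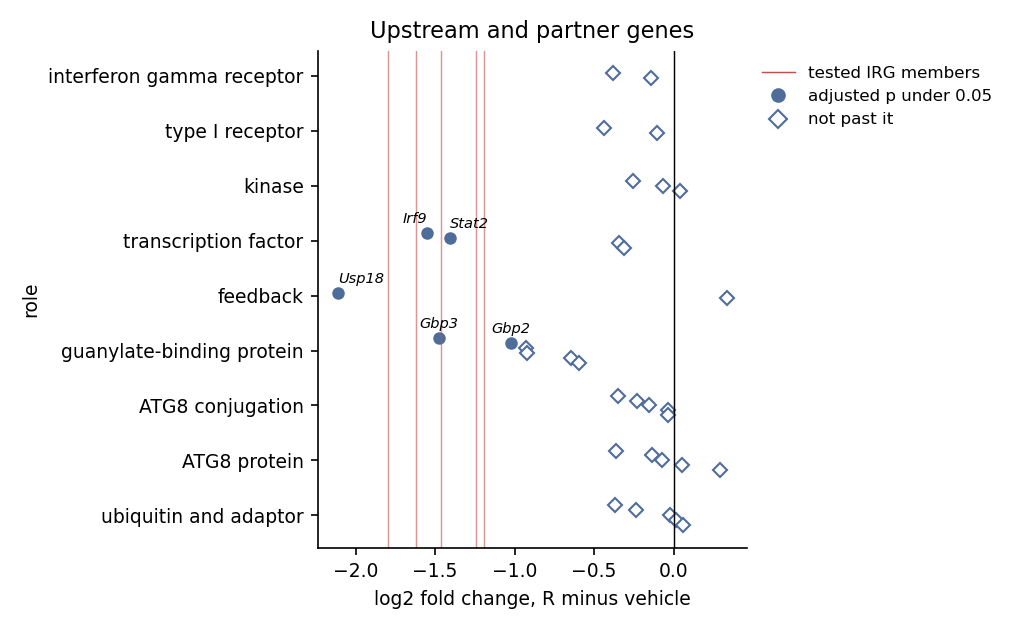
Log2 fold changes (R minus vehicle, on log2(FPKM + 1)) of tested upstream and partner genes by role, with filled circles for those past an adjusted p of 0.05 in limma. Red lines mark the 5 tested IRG members, from -1.79 to -1.19. Stat2, Irf9, Gbp3 and Usp18 lie among or beyond the members, and no receptor, kinase or autophagy gene is filled.

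Macrophages express IRG genes when stimulated, and 16 macrophage markers were read in the same fit. These all lay on the negative side, at a median log2 fold change of -0.56 against -1.46 for the 5 tested members. Of the 16 markers 2, Fcgr1 and Itgam, fell and 0 rose, against a background of 1.37% called lower and 0.345% called higher. The groups overlapped for Mrc1 and C1qc. The summed FPKM of the 16 markers, most of it from Lyz2, was 1.56-fold lower in R. By single marker the ratio of vehicle to R ran from 1.09 for Adgre1 to 3.98 for Fcgr1, and Fcgr1 thus lay inside the range of the IRG members, 2.58 to 4.63. Fcgr1, the high-affinity receptor for IgG, was at 11.5 and 8.58 FPKM in R and at 40.6 and 39.4 FPKM in vehicle. Itgam, an integrin chain of myeloid cells, was at 15.1 and 15.2 FPKM in R and at 31.3 and 27.2 FPKM in vehicle. Per 1000 FPKM of Csf1r, the receptor for the macrophage growth factor, Irgm1 was at 13.2 and 14.3 in R and 28.9 and 30.7 in vehicle. Iigp1 per 1000 FPKM of Csf1r was at 3.87 and 5.80 in R and 17.97 and 19.3 in vehicle. Per 1000 FPKM of Cd68, a lysosomal marker of macrophages, Irgm1 was at 11.6 and 14.7 in R and 19.9 and 22.3 in vehicle. Over the whole marker list, both R ratios lay below both vehicle ratios with 15 of 16 markers as the denominator for Irgm1, Igtp, Iigp1 and Tgtp2, and with 14 of 16 for Irgm2. The exceptions were Fcgr1 for each of the 5 and Fcer1g for Irgm2. Every marker but Fcgr1 was at most 1.93-fold lower in R, less than any member, so this separation largely restates those fold changes. No share over all genes as denominators was taken. Per Fcgr1, Irgm1 was at 0.495 and 0.696 in R and 0.369 and 0.390 in vehicle, the opposite direction. Irgm2 and Igtp per Fcgr1 were also higher in both R libraries, and Iigp1 and Tgtp2 per Fcgr1 overlapped between the groups. Of 13 tested stromal markers 1, Ly6a, fell and 0 rose, against a background of 1.37% called lower and 0.345% called higher. Their median log2 fold change was 0.11, and 4 of the 13 were negative. Col1a1 was at 852 and 795 FPKM in R and at 532 and 526 FPKM in vehicle, and did not pass. All 15 stromal markers summed to 2182 and 2253 FPKM in R and to 1812 and 1793 FPKM in vehicle. The part that cell composition plays in the IRG values was not tested.

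Likeness of pattern was measured as the root mean square distance between log2(FPKM + 1) profiles over the 4 libraries, each centred on its own mean. Among the members, Irgm1 and Irgm2 were nearest, at 0.09, and Irgm2 and Iigp1 furthest apart, at 0.30. Outside the family, the genes nearest to the mean of the 5 tested members included Ms4a6d at 0.036, Mx2 at 0.037, Cmpk2 at 0.052 and Treml2 at 0.062. Ms4a6d, a membrane protein of the Ms4a family, was at 40.8 and 41.3 FPKM in R and 121 and 110 FPKM in vehicle. Mx2 is an interferon-induced gene of the dynamin family of GTPases, and GENCODE M21 annotates it as a polymorphic pseudogene. The values of Mx2 were low, at 0.129 and 0.153 FPKM in R and 2.16 and 1.94 FPKM in vehicle. Cmpk2 was at 0.0747 and 0.199 FPKM in R and 2.44 and 1.90 FPKM in vehicle, and Treml2 at 0.179 and 0.146 against 2.46 and 2.05 FPKM. Mx2, Cmpk2 and Treml2 passed the filter through their vehicle values alone. Their FPKM ratios between the groups exceeded those of the members, and they lie near them only on a scale compressed by the pseudocount of 1. Nearest to the regulatory members were Parp9 at 0.018, Phf11d at 0.022 and Epsti1 at 0.040. Nearest to the effectors Iigp1 and Tgtp2 were Trim30a at 0.032, Cd38 at 0.057 and Slfn8 at 0.062. Phf11d and Cd38 also stayed under 1 FPKM in both R libraries. With 4 libraries in 2 groups, a small distance mostly reflects a like difference between the groups.

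Leaving out any 1 library kept all 5 tested members lower and past the threshold in limma, though each such fit had 1 library in one group and took its spread from the pair left in the other (1 residual degree of freedom), with the lone library assumed to vary alike. The log2 fold changes then lay, for Iigp1, between -1.97 and -1.62 and, for Irgm2, between -1.34 and -1.04. The background called lower was 5.73% without R replicate 1, 3.49% without R replicate 2, 1.51% without vehicle replicate 1 and 2.05% without vehicle replicate 2. When every gene above 0 was tested, none of 24958 passed after adjustment in limma (0% called), with 2767 at an unadjusted p under 0.05. The 5 members then ranged from adjusted p = 0.0864 for Irgm1 to adjusted p = 0.152 for Irgm2 and Tgtp2, and Tgtp1, tested only in this setting, had adjusted p = 0.299. All 5 members were called with voom on recovered reads, where the background was 1.98%, and with quantile normalization, where it was 1.52%. The same held with a gene length correction (2.87%), pseudocounts of 0.1 (1.37%) and 5 (1.31%) and no mean trend (1.34%). A minimum mean of 5 FPKM left 4 members, without Tgtp2, and all 4 were called (background 2.18%). On the TPM scale 4 of the 5 were called, against 1.02% of tested genes.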

How the data were processed

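The 4 libraries, 2 R and 2 vehicle, were grouped by their titles. The deposited table gives 1 FPKM value per Ensembl gene and library, per the file headers. Its 10 empty columns were not used. GRCm38, mm10 and edgeR 3.18.1 are named per the submitters' processing notes, with no role. Aligner, counter and annotation were not given in the sources used here. Of 54532 identifiers 54495 matched GENCODE M21, which gave symbols, coordinates and union exon lengths. FPKM times length gave whole reads, within 0.02, for 96.3 to 96.4% of values above 0. For Iigp1 it did not, so its reads are approximate. Relative to recovered reads, the FPKM denominators of the libraries differed by factors from 0.977 to 1.037.

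The groups were compared on log2(FPKM + 1), using limma 3.58.1 (R 4.3.3) with a mean trend and no further terms, over the 12176 genes whose mean reached 1 FPKM (2 residual degrees of freedom, prior 3.83). Calls needed a Benjamini-Hochberg adjusted p under 0.05. The script was tested on simulated data. Named genes were the members, the other IRG loci, genes of the signalling and partner lists, and the nearest profiles by distance. Some of these genes are not reported here. The members and lists were chosen with earlier results of these data known. Promoters came from RefSeq (GRCm38.p6). Alternatives changed the pseudocount, filter, scale, test, length trend, replicate block and libraries, and summed Tgtp1 with Tgtp2.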

Additional observations from a re-analysis of the deposited data

How the results depend on the processing

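Each of the 5 tested members had a log2 fold change below 0 under all 15 alternatives run for it. Irgm1, Igtp, Iigp1 and Tgtp2 were called in 14 of the 15 and Irgm2 in 13. The calls were lost without a filter, where limma called 0 genes higher, 0 lower and 0 members, and the log2 fold changes stayed at -1.24 for Irgm1, -1.19 for Irgm2, -1.46 for Igtp, -1.79 for Iigp1 and -1.62 for Tgtp2. That setting tested 24958 genes in place of 12176, and the cause of the loss was not tested. Irgm2 was also lost on the TPM scale, at -1.18, where the median of all tested genes moved to 0.13. Summing Tgtp1 with Tgtp2 gave -1.61 and a call. The mean regulatory less the mean effector log2 fold change, -0.10, was 0.25 with a pseudocount of 0.1, -0.25 with a pseudocount of 5, 0.11 on the TPM scale and 0.43 with voom on recovered reads. Chosen after the data were seen, it was 0.41 without Tgtp1 and 0.45 without a pseudocount. Genes called higher and lower over the whole table were 223 and 349 with a gene length trend correction, and 85 were higher with voom. Leaving out 1 library gave 100 to 447 higher and 183 to 698 lower, and 5 members called each time. Same-numbered libraries share only a number in the labels. Their deviations from group means correlated at 0.35 across genes. With the replicate block 891 genes were higher and 1009 lower of 12176 tested (53.1% of calls lower), on 1 residual degree of freedom. With the replicate block and length correction these were 800 and 850 of 12173 (51.5%). All 5 members stayed called in both, but many more genes were called lower than the 167 of the main fit. Depth limits Tgtp1, with 6 to 15 reads a library.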

Other observations

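Replicate 2 exceeded replicate 1 in both groups for several IRG loci, among them Irgm1, Irgm2, Iigp1, Gm4951, Gm4841 and Irgq. For Igtp replicate 1 was the higher in both groups. The order differed between the groups for Tgtp2, Gm5431, Gm12250 and Gm12185. For Tgtp1 the replicates had equal reads, 6 each in R and 15 each in vehicle, so their order reflects only library scaling. The share of all genes with either order was not counted. The values of 3 further low loci are given here. The locus 9930111J21Rik1 was at 0.392 and 1.42 FPKM in R replicates 1 and 2 and at 0.452 and 0.991 FPKM in vehicle replicates 1 and 2. The locus 9930111J21Rik2 was at 1.59 and 3.59 FPKM in R and at 2.21 and 3.37 FPKM in vehicle. F830016B08Rik was at 0.126 and 0.469 FPKM in R and at 0.929 and 1.96 FPKM in vehicle. The first 2 are near copies, and 69.4% of the 100-base stretches of 9930111J21Rik1 transcripts occur in 9930111J21Rik2. The 3 loci were singled out after their values were seen.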
